A study of Mus musculus with 4 samples.

Results

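The S100 genes encode small calcium-binding proteins, and 9 of them, among 32285 genes listed in the files, were followed through normal and injured mouse kidney. The members were taken by gene symbol and sorted into 3 groups by their usual cell source. S100a8, S100a9 and S100a4 were set as 3 myeloid members and S100g and S100a1 as 2 tubular members. S100a6, S100a10, S100a11 and S100a13 were set as 4 broadly expressed members. These group names were chosen with earlier results of these data known and do not state which cells held the RNA in these sections. All 9 were detected in every section and all 9 passed the filter on low counts in each comparison. The material was 4 frozen sections of left kidney, 10 µm thick, from male wild-type C57BL/6J mice of 7 to 8 weeks, on Visium slides, which capture polyadenylated RNA on a grid of barcoded spots. The 2 normal sections came from control mice, and the 2 ischemic sections from mice whose renal pedicles had both been clamped for 30 min, with the kidneys taken 24 h after ischemia. No mouse carried a transgene or a deletion according to the labels. A spot covers several cells, so values describe small regions and not cells, and within them fewer cells of a type and less RNA per cell cannot be told apart. The labels do not say which mouse a section came from, and p-values may therefore measure only technical spread between sections.

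S100 proteins pair into dimers that change shape when calcium binds and then grip other proteins. S100a8 and S100a9 pair with each other as calprotectin, which fills the cytosol of neutrophils and is also found in monocytes, and which acts as an alarm signal through Tlr4 and Ager once it is released. S100g is the small vitamin D-dependent calbindin, which ferries calcium through cells of the distal convoluted and connecting tubule. S100a10 binds Anxa2 and holds it at the membrane, S100a6 and S100a11 bind several annexins, S100a4 is found in motile cells such as leukocytes and fibroblasts, S100a1 is best known from muscle, and S100a13 takes part in the release of proteins that lack a signal peptide.

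Of the 9 genes, 8 lie on chromosome 3 in GRCm38 (GENCODE vM21) and S100g lies on the X chromosome at 162961992 to 162964599 on the minus strand. S100a8 (90668978 to 90670035, plus strand) and S100a9 (90692632 to 90695721, minus strand) are separated by 22596 bases. S100a1 (90511034 to 90514392, minus strand) and S100a13 (90514435 to 90524581, plus strand) point away from each other with 42 bases between them. S100a4 lies at 90603771 to 90606045, S100a6 at 90612882 to 90624181, S100a11 at 93520488 to 93526287 and S100a10 at 93555080 to 93564643, all on the plus strand. For 8 of the 9 members a promoter of 250 bases before to 50 bases after the annotated start was held in RefSeq (GRCm38.p6), whose start for a gene can differ from that of GENCODE, as it does for S100a8 and S100a4. The 60 bases before the start are shown for the myeloid members and for S100g, to set the myeloid genes beside the tubular one, with the TATAAA letters in capitals where they fall within the stretch.
S100a8 (chr3:90669011-90669070, plus strand): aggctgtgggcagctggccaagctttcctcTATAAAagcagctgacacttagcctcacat
S100a9 (chr3:90695722-90695781, minus strand): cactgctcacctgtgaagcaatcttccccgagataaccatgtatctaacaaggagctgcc
S100a4 (chr3:90603710-90603769, plus strand): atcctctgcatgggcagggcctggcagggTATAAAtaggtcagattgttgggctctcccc
S100g (chrX:162964600-162964659, minus strand): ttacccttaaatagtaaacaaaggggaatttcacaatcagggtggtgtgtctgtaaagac
The letters TATAAA, searched on both strands, occurred in 4 of the 8 member promoters (S100a8, S100a9, S100a4 and S100g) and in 13.6% of all promoters in the set. They began 30 bases before the annotated start in S100a8 and 31 bases before it in S100a4. In S100a9 and S100g they began at base 1 of the annotated transcript and so lie outside the stretch printed. This motif was picked after 17 had been searched, and a match is a description of letters and not of a binding site.

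The sections held 44528078 and 27657481 UMIs (unique molecular identifiers, 1 for each captured RNA molecule) for normal sections 1 and 2, and 31053530 and 25957128 for ischemic sections 1 and 2. Levels are given as CPM, the UMIs of a gene scaled to 1e6 UMIs of the section or zone. The injury genes separated the groups, with Havcr1 (kidney injury molecule) at 0.966 and 2.13 CPM in normal sections and 1408 and 1413 CPM in ischemic sections, and Lcn2 (lipocalin) at 4.92 and 7.95 against 3056 and 3626 CPM. Fold changes come from edgeR with TMM scaling. Scaling by total counts instead moved the median of all genes from 0.04 to 0.31 on the log2 scale for whole sections, so log2 changes of whole sections run about 0.27 below ratios of the plain CPM. Between conditions the same shift was 0.20 (cortex), 0.37 (outer stripe), 0.32 (inner stripe) and 0.16 (inner medulla), and for the outer stripe against the cortex in normal sections it was -0.15.

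As a share of all UMIs, the 9 members rose from 0.347% and 0.454% in normal sections to 0.784% and 0.758% in ischemic sections. In normal kidney the tubular members made up most of the family's UMIs, with 75.7% (95% Wilson interval 75.5 to 75.9) and 71.0% (70.8 to 71.3). In ischemic kidney they made up 26.9% (26.7 to 27.1) and 24.0% (23.8 to 24.2). The broadly expressed members went from 23.9% and 28.5% to 70.8% and 73.6%, and the myeloid members from 0.385% and 0.475% to 2.32% and 2.38%. Within the myeloid group S100a4 gave 551 of 594 and 557 of 596 UMIs in normal sections. In ischemic sections it gave 660 of 5640 and 492 of 4682 UMIs, so the group share rests on different genes in the 2 conditions. S100g was the most abundant member in both normal sections and S100a6 in both ischemic sections. The intervals reflect counting error alone.

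**Figure D1:**
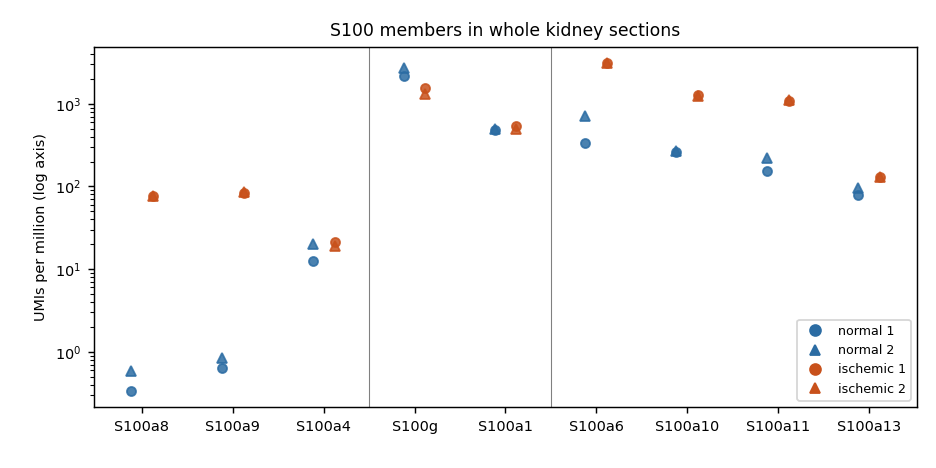
CPM of each S100 member in whole sections, on a log axis, with 1 point per section (circle, replicate 1, triangle, replicate 2). S100a8 and S100a9 lie below 1 in both normal sections and above 75 in both ischemic sections, while the points of S100a4 overlap between the groups and those of S100a1 nearly meet.

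Across whole sections, 6 members rose with ischemia, S100g fell, and S100a4 and S100a1 did not pass the test (edgeR quasi-likelihood test, Benjamini-Hochberg adjusted p under 0.05). The 7 of 9 members called stand beside 60.6% of the 15305 genes tested, so the number called in either direction is near the background. By direction, 6 were higher and 1 was lower, beside 31.0% and 29.7% of genes. The median log2 change of the 9 members was 1.97, against 0.04 over all genes. The members were chosen with earlier results of these data known, so neither this median nor the counts of calls show that the family stands out. The cortex had 6 members higher and 1 lower, beside 25.7% of genes higher and 24.1% lower (49.8% called). The outer stripe had 8 higher and 0 lower, beside 34.5% and 32.9% (67.4% called). The inner stripe had 5 higher and 0 lower, beside 20.2% and 23.0% (43.2% called). The inner medulla had 4 higher and 2 lower, beside 11.1% and 16.4% (27.5% called).

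S100a8 and S100a9 had the largest changes of the family. S100a8 stood at 0.337 and 0.579 CPM in normal sections (15 and 16 UMIs) and at 76.7 and 76.8 CPM in ischemic sections (2381 and 1993 UMIs). S100a9 stood at 0.629 and 0.832 CPM (28 and 23 UMIs) against 83.7 and 84.6 CPM (2599 and 2197 UMIs). Both ischemic sections lay far above both normal sections for each gene, and the sections of a group lay close together. The log2 change was 7.17 ± 0.157 (SE, edgeR adjusted p = 2.2e-08) for S100a8 and 6.59 ± 0.136 (adjusted p = 2.11e-08) for S100a9. As a ratio of pooled CPM, S100a8 was 179-fold higher (exact 95% counting interval 126 to 263) and S100a9 119-fold higher (90.4 to 160.2).

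The outer stripe, the part of the outer medulla that holds the straight end of the proximal tubule, carried most of this signal. In ischemic sections S100a8 was at 138 and 141 CPM there, against 26.7 and 31.9 CPM in the cortex, 58.0 and 52.2 CPM in the inner stripe and 70.1 and 65.3 CPM in the inner medulla. S100a9 was at 151 and 153 CPM in the outer stripe and 32.6 and 37.8 CPM in the cortex. The outer stripe held 59.2% and 61.6% of all S100a8 UMIs of the ischemic sections but 32.9% and 33.4% of all UMIs. In ischemic sections the outer stripe exceeded the cortex by 2.24 ± 0.171 (log2, edgeR adjusted p = 5.33e-09) for S100a8 and by 2.09 ± 0.195 (adjusted p = 7.5e-08) for S100a9. The pelvis, described without a test, had 158 and 69.7 CPM of S100a8, so its sections differed by more than those of any tested zone and its range overlapped that of the outer stripe. The ischemic pelvis held 1091 and 817 CPM of Havcr1, and the urothelial gene Upk1a was at 21.8 and 41.2 CPM against 864 and 1150 CPM in normal sections. With zones called from each spot alone, 28.6% and 28.5% of its spots were kept. Ischemic pelvis values of any member may therefore not describe pelvis alone.

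In the normal sections the pair was close to the limit of counting in every zone. S100a8 had 0 to 9 UMIs per zone and section and S100a9 0 to 12. A count of 0, as for S100a8 in the pelvis of normal section 1, allows up to 3 UMIs. The fitted log2 changes in the outer stripe, 8.56 for S100a8 and 7.81 for S100a9, therefore rest on 7 and 13 normal UMIs over both sections. The pooled ratio for S100a8 was 509 with an exact counting interval of 247 to 1268 in the outer stripe, 59.6 (36.4 to 105) in the cortex and 34.4 (14.6 to 107) in the inner medulla. In the inner stripe it rested on 2 normal UMIs and was 228 (62.7 to 1885). The interval of the outer stripe did not meet that of the cortex. The test of the difference gave 2.89 ± 0.949 (log2, outer stripe against cortex, change with ischemia, adjusted p = 0.0346) for S100a8 and 2.04 ± 0.953 (adjusted p = 0.142) for S100a9. Without normal replicate 2 the S100a8 difference was 2.45 with an adjusted p of 0.16, and without ischemic replicate 2 the S100a9 difference was 2.13 with an adjusted p of 0.048.

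The pair was found at similar numbers. There were 0.916 S100a8 UMIs per S100a9 UMI in ischemic section 1 (exact interval 0.866 to 0.969) and 0.907 (0.853 to 0.964) in ischemic section 2. By zone the ratio ran from 0.811 in the inner medulla of ischemic section 1 to 1.19 in the pelvis of ischemic section 2, with wide intervals in the small zones. S100a8 was seen in 32.2% (exact interval 30.4 to 34.1) and 26.1% (24.4 to 27.8) of spots of the ischemic sections, and in 0.459% and 0.559% of spots of the normal sections. With each spot thinned to 2000 UMIs, which left out 48 to 150 shallower spots per section, the shares were 10.2% and 9.45% against 0.102% and 0.131%. Of spots with S100a8, 61.2% and 58.0% also held S100a9, where 33.4% and 27.0% of all spots did. The top 5% of spots held 54.6% and 59.3% of the S100a8 UMIs. S100a4, with 660 and 492 UMIs in the same sections, had 47.0% and 50.2% in its own top 5% of spots. Few UMIs raise this share by themselves, so patchiness is not read from it.

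**Figure D2:**
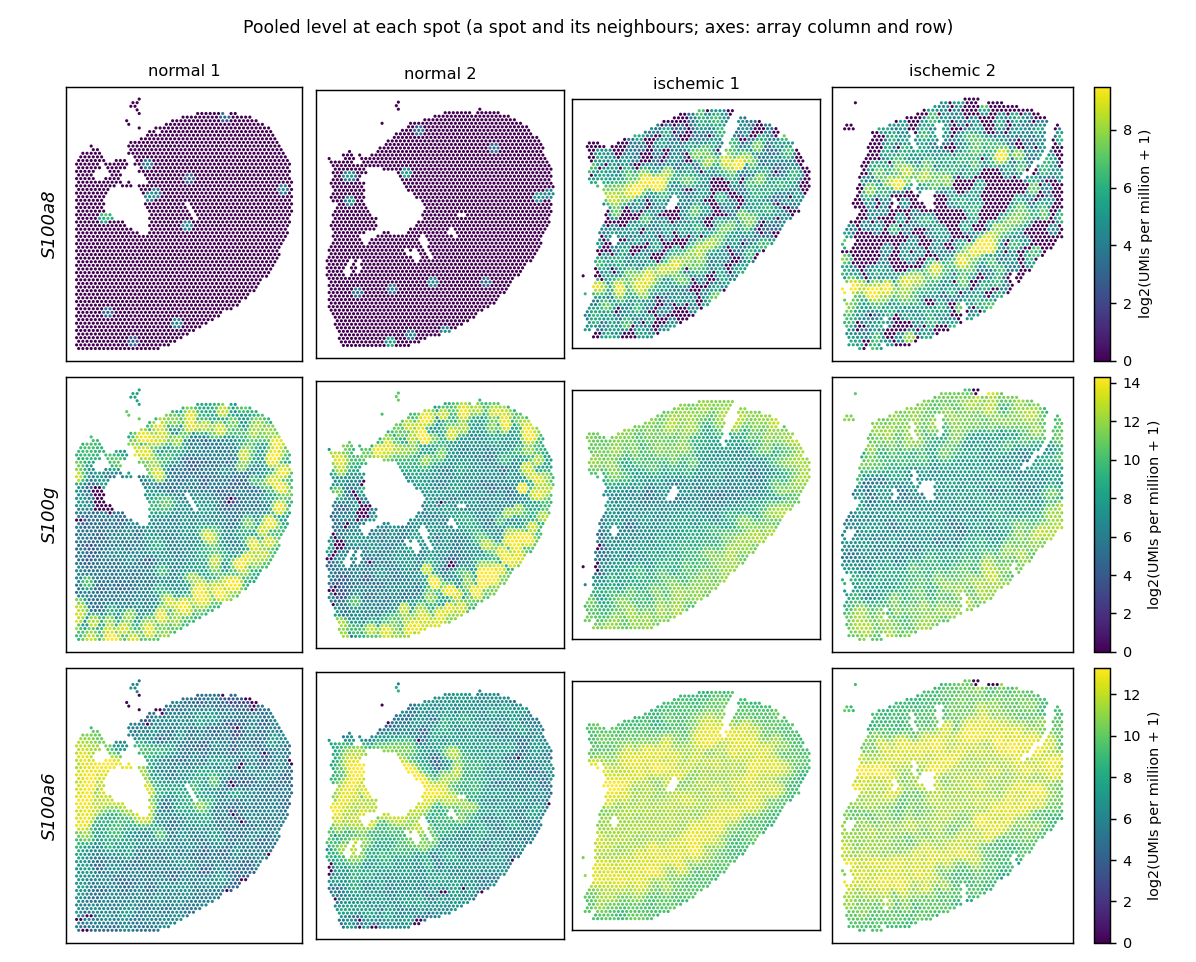
Level of S100a8, S100g and S100a6 at each spot, as log2(CPM + 1) over a spot and its neighbours, in 2 normal and 2 ischemic sections, with array column and row as the axes. S100a8 appears in streaks in the ischemic sections, S100g is focal in the normal cortex and even in the ischemic cortex, and S100a6 is bright around the pelvis of normal sections and across the medulla of ischemic sections.

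Neutrophil genes moved with the pair. Of 14 fixed neutrophil markers, 10 passed the filter on low counts in whole sections and were called higher, but Mmp8, Trem1 and Stfa2l1 were at 0 in both normal sections and passed only through the ischemic ones, so the count is not read as support. Among those seen in every section, Clec4d, a myeloid lectin, went from 6 and 4 UMIs to 146 and 116 UMIs, and Il1r2, a decoy receptor for interleukin 1, from 9 and 13 to 149 and 122 UMIs. Ltf, a granule protein, went the other way, from 14 and 9 to 6 and 3 UMIs. Retnlg (resistin-like gamma) went from 4 and 3 UMIs to 391 and 308 UMIs. Trem1, which amplifies myeloid activation, was at 0 in both normal sections and reached 56 and 51 UMIs. The summed level of the 14 markers was 1.91 and 2.82 CPM in normal against 35.3 and 33.4 CPM in ischemic sections, and 57.0 and 55.6 CPM in the ischemic outer stripe. The defining granulocyte gene Ly6g had 4 UMIs in each ischemic section, Camp 0, and Ngp 1 and 2. Of 7 monocyte markers 3 rose (beside 31.0% of all genes), Chil3 (a chitinase-like protein of monocytes and neutrophils) the most with 7.16 on the log2 scale, while Ly6c2 fell by 2.25. Within ischemic sections, neighbour-pooled S100a8 correlated with S100a9 at r = 0.581 and 0.559 and with Retnlg at r = 0.489 and 0.458, over 2401 and 2613 spots that share a library and overlap in their neighbours. The part of these cells in the S100a8 values was not tested.

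Of 8 genes for proteins that bind S100a8 and S100a9, 4 rose and Bsg (basigin, an abundant tubule membrane protein) fell, which is not far from the 31.0% of all genes called higher and 29.7% called lower. Cd14, a lipopolysaccharide co-receptor, rose by 2.78 ± 0.199, Tlr4 by 0.79 and its partner Ly96 by 0.62. Ager did not pass the test, at 0.54. Cd36, a fatty acid receptor, differed by zone, at 1.07 in the cortex and -2.58 in the inner stripe, both called.

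S100a4 differed from the other myeloid members. Whole-section levels overlapped, with 12.4 and 20.1 CPM in normal against 21.3 and 19.0 CPM in ischemic sections, and the log2 change was 0.07 (adjusted p = 0.704). Without normal replicate 2 it was 0.27 with an adjusted p of 0.012. Beneath this, the zones went opposite ways. In the outer stripe S100a4 rose from 9.96 and 12.0 CPM to 28.1 and 28.1 CPM, by 1.00 ± 0.122 (adjusted p = 2.26e-07). In the inner medulla it fell from 71.8 and 76.7 CPM to 29.7 and 26.0 CPM, by -1.59 ± 0.213 (adjusted p = 0.00153). In the pelvis, with no test, it was 66.8 and 114 CPM in normal against 38.0 and 29.3 CPM in ischemic sections. The cortex had 7.83 and 10.2 against 11.6 and 8.51 CPM. The inner stripe had 10.6 and 13.4 against 23.1 and 16.2 CPM, a log2 change of 0.40 that did not pass the test (adjusted p = 0.213). The groups overlapped in the cortex and in none of the other zones.

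The change of S100a4 differed between zones by the test itself, with 1.00 ± 0.223 for the outer stripe against the cortex (adjusted p = 0.00285) and -1.54 ± 0.257 for the inner medulla against the cortex (adjusted p = 0.000357). The first was 0.80 (adjusted p = 0.14) without ischemic replicate 2 and the second -1.39 (adjusted p = 0.054) without ischemic replicate 1. Marker lists of other cells moved in both directions in the inner medulla. The 7 monocyte markers summed to 57.6 and 81.7 CPM there in normal and 228 and 196 CPM in ischemic sections. The 14 neutrophil markers summed to 14.2 and 9.24 against 49.1 and 30.3 CPM, and the 8 macrophage markers to 304 and 432 against 266 and 226 CPM. The 7 T cell markers summed to 38.1 and 130.02 CPM in the normal inner medulla and 4.57 and 3.84 CPM in the ischemic inner medulla. The 6 urothelial markers summed to 916 and 2355 CPM there in normal and 6.47 and 63.6 CPM in ischemic sections, with Upk2 at 0 in both of the latter. The part of these cell types in the S100a4 values was not tested.

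**Figure D3:**
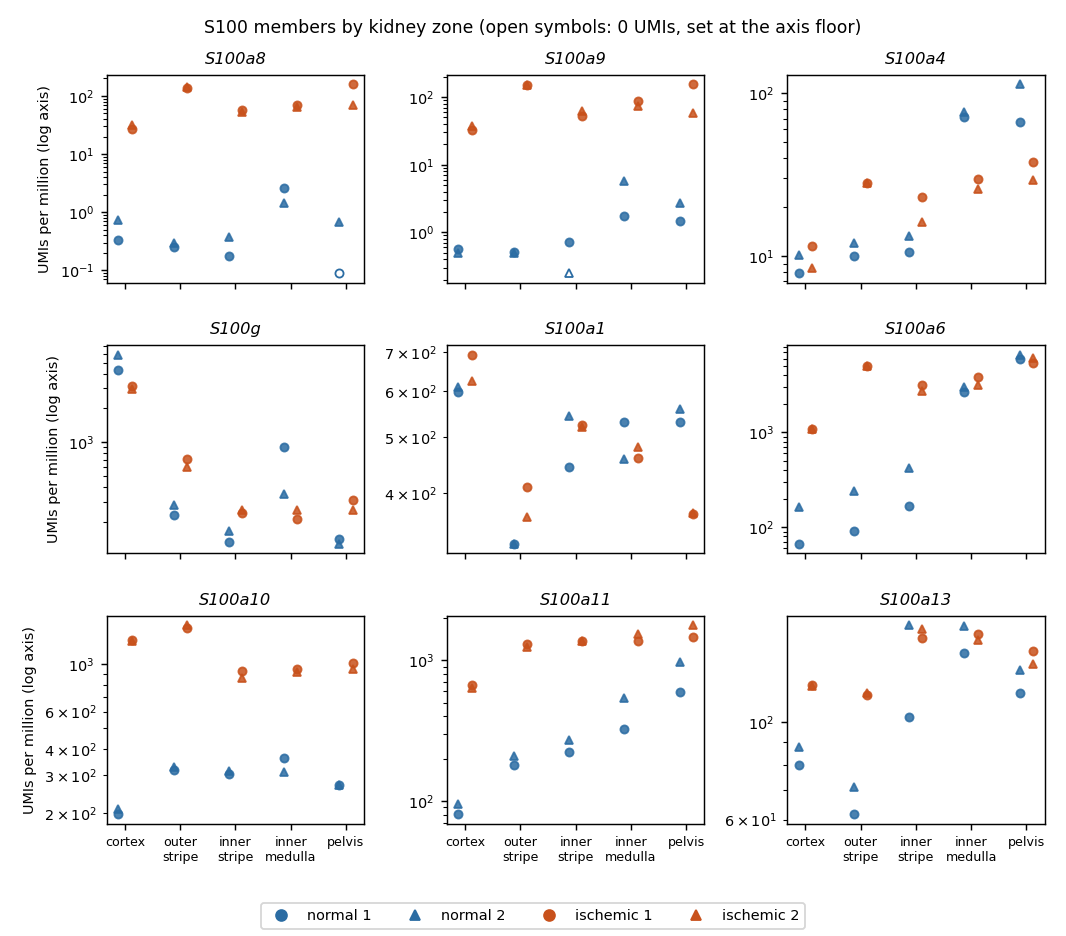
CPM of each member in 5 zones, on a log axis that differs between panels, with 1 point per section (blue normal, orange ischemic). The normal and ischemic points of S100a6 meet in the pelvis and lie far apart in the outer stripe, and those of S100a4 swap order between the outer stripe and the inner medulla.

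S100g, the calcium carrier of the distal tubule, was a cortical gene in normal kidney and fell there with injury while it rose in the outer stripe. Whole sections had 2143 and 2733 CPM in normal and 1566 and 1327 CPM in ischemic kidney, without overlap, a log2 change of -1.02 ± 0.179 (adjusted p = 0.00105). Without ischemic replicate 1 this was -1.13 (adjusted p = 0.065) and without ischemic replicate 2 -0.88 (adjusted p = 0.16). In the cortex the levels were 4320.3 and 5896 against 3132 and 2924 CPM, a change of -0.94 ± 0.15 (adjusted p = 0.000126). In the outer stripe they were 228 and 281 against 713 and 607 CPM, a change of 1.02 ± 0.117 (adjusted p = 8.31e-08). This rise was called in all 17 alternatives run for the outer stripe, with values from 0.91 to 1.38. The change in the outer stripe differed from that in the cortex by 1.96 ± 0.367 (adjusted p = 0.00064), and without ischemic replicate 1 or 2 by 1.89 and 2.02 (adjusted p = 0.071 and 0.05, neither called).

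Below the outer stripe the levels of S100g differed between zones and sections. The inner stripe had 132 and 166 CPM in normal against 240 and 254 CPM in ischemic sections, and its change of 0.42 did not pass the test (adjusted p = 0.0784). It was called without normal replicate 1 (0.47, adjusted p = 1.6e-05) and without normal replicate 2 (0.32, adjusted p = 0.002). The inner medulla had 900.3 and 352 CPM in normal sections, with the first well above the second, and 209 and 253 CPM in ischemic sections. Its change was -1.71 ± 0.477 (adjusted p = 0.0305), and -1.56 (adjusted p = 0.063) without ischemic replicate 1. It was -0.59 without normal replicate 1 and -2.34 without normal replicate 2, both called, so its size rests on which normal section is used. Markers of the distal convoluted and connecting tubule moved with it. The 5 of them summed to 212 and 48.3 CPM in the normal and 24.4 and 24.3 CPM in the ischemic inner medulla, and to 866 and 1076 against 338 and 295 CPM in the cortex, where S100g also fell. In the outer stripe, where S100g rose, they summed to 44.9 and 71.4 against 24.5 and 30.2 CPM. Their part in the S100g values was not tested. The share of S100g UMIs that lay in the cortex went from 94.2% and 94.8% to 80.9% and 78.8%, and the share in the outer stripe from 3.71% and 3.70% to 15.0% and 15.3%.

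The texture of the signal also changed. The top 5% of all spots of a section, in any zone, held 67.1% and 73.9% of its S100g UMIs in normal and 32.4% and 36.3% in ischemic sections. These shares therefore also take in the lower share of S100g UMIs that lay in the ischemic cortex. Slc12a3, the sodium chloride cotransporter of the distal convoluted tubule, had 56.7% and 59.5% against 55.7% and 64.5% in its own top 5% of spots. Calb1, the larger calbindin of the same segment, had 74.8% and 79.9% against 75.2% and 77.9%. Slc12a3 went from 8055 and 5901 UMIs to 3350 and 2376, and Calb1 from 7970 and 5946 to 916 and 561. Fewer UMIs raise such a share by themselves, so no contrast with S100g is read from these genes. In cortical spots, pooled with their neighbours, S100g ran from 279 and 321 CPM (10th percentile) through 2398 and 3002 (median) to 11805 and 14155 (90th percentile) in normal sections. In ischemic sections it ran from 1384 and 1295 through 2893 and 2747 to 4769 and 4984 CPM. The low spots were thus higher and the high spots lower, while the medians of the groups overlapped. Thinned to 2000 UMIs, cortical spots with S100g made up 70.9% and 73.2% in normal against 94.1% and 93.0% in ischemic sections, opposite in direction to the CPM, so no order of levels is read from this share. With 2 sections against 2 these values are descriptions without a test.

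**Figure D4:**
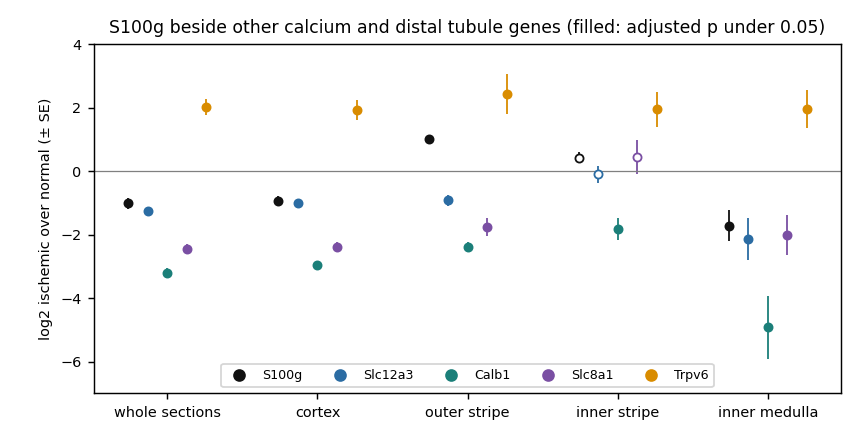
Log2 change with ischemia (points, with standard error bars) of S100g and 4 other calcium or distal tubule genes in whole sections and 4 zones, filled where the adjusted p was under 0.05. In the outer stripe S100g lies at 1.02 while Slc12a3, Calb1 and Slc8a1 lie below 0.

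Genes of the distal calcium route moved in both directions in the outer stripe. Of 10 genes of active calcium reabsorption, 9 were tested in whole sections, where 3 rose and 4 fell, beside 31.0% and 29.7% of all genes. In the outer stripe 8 were tested, 3 rose and 4 fell, beside 34.5% and 32.9% of all genes, so these counts are near the background. There Calb1 changed by -2.40, Slc8a1, the sodium calcium exchanger, by -1.75, and Slc12a3 by -0.92, all called. Trpv6, the apical calcium channel, rose by 2.44 in the outer stripe and by 1.93 in the cortex. Cyp24a1, which breaks down active vitamin D, rose by 3.70 in the outer stripe, while Vdr, the vitamin D receptor, fell by 1.40. At spot level neighbour-pooled S100g correlated with Calb1 at r = 0.836 and 0.841 in normal against 0.625 and 0.614 in ischemic sections. The Calb1 counts behind these values dropped with ischemia, from 7970 and 5946 UMIs to 916 and 561. Fewer UMIs can lower r by themselves, so no parting of S100g from Calb1 is read from the lower values.

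S100a1, the other tubular member, passed the test between conditions in neither whole sections nor any zone. It stood at 480.5 and 491 CPM in normal kidney and 543 and 495 CPM in injured kidney, so the nearest sections of the groups almost met. Its log2 changes ran from -0.28 in the inner medulla to -0.08 in the cortex, and with total-count scaling the whole-section value was 0.10 and the outer stripe value 0.24, so its direction depends on scaling. Without normal replicate 2 it was called lower in whole sections (-0.32, adjusted p = 0.00047). It was higher in the cortex than in the other zones in both conditions. The outer stripe against the cortex was -0.73 ± 0.103 (adjusted p = 2.06e-05) before injury and -0.79 ± 0.104 (adjusted p = 5.53e-06) after it, with levels of 328 and 328 against 598 and 609 CPM in normal kidney.

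S100a6 rose in whole sections and in all tested zones but the inner medulla, and its normal sections lay far apart. Normal sections had 335 and 707 CPM, the second well above the first, and ischemic sections 3077 and 3098 CPM. The log2 change was 2.34 ± 0.261 (adjusted p = 6.65e-05). In normal kidney the gene was concentrated at the pelvis (5910.4 and 6598 CPM) and the inner medulla (2657 and 2978 CPM) and was low in the cortex (66.7 and 165 CPM), a span of 54.1 times between the highest and the lowest zone. In ischemic kidney this span was 5.30 times. The outer stripe went from 91.01 and 239 CPM to 5019 and 4987 CPM, a change of 4.61 ± 0.261 (adjusted p = 5.22e-13). The cortex went from 66.7 and 165 to 1077 and 1095 CPM, by 3.07 ± 0.254 (adjusted p = 2.1e-07). Leaving out 1 section, the outer stripe value ran from 4.13 to 5.27 and the cortex value from 2.61 to 3.69, with the highest of each without normal replicate 2.

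In the inner medulla S100a6 did not pass the test, with 3817 and 3137 CPM in ischemic sections and a log2 change of 0.11 (adjusted p = 0.745), and in the pelvis it was 5417 and 6094 CPM. Urothelial markers, which summed to 5215 and 6336 CPM in the normal pelvis, summed to 766 and 1116 CPM in the ischemic pelvis. The normal inner medulla also held them. There Psca was at 617 and 1653 CPM in normal and 3.43 and 53.3 CPM in ischemic sections, and Upk3a at 158 and 339 against 1.52 and 5.97 CPM. With zones called from each spot alone the inner medulla change was 1.35 (adjusted p = 0.0032), so this value depends on how spots were assigned. Neighbour-pooled S100a6 correlated with the urothelial gene Upk3a at r = 0.795 and 0.749 over normal spots and at 0.249 and 0.224 over ischemic spots. The part of urothelium in the S100a6 values was not tested. The pelvis held 54.7% and 50.5% of all S100a6 UMIs in normal sections and 7.01% and 9.56% in ischemic sections, and the outer stripe 9.51% and 12.2% against 53.6% and 53.8%.

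S100a10, the partner of Anxa2, rose in whole sections and in each of the 4 tested zones. In normal kidney it was lowest in the cortex, with the outer stripe above it by 0.82 ± 0.101 on the log2 scale. It stood at 259 and 270.4 CPM in normal sections and 1269 and 1250.4 CPM after ischemia, a log2 change of 1.97 ± 0.153 (adjusted p = 7.05e-06). In the cortex it rose from 197 and 209 to 1301 and 1294 CPM, by 2.48 ± 0.12 (adjusted p = 7.06e-10). The outer stripe rose by 1.86, the inner stripe by 1.21 and the inner medulla by 1.26, all called. Without ischemic replicate 1 the inner stripe (1.19, adjusted p = 0.055) and the inner medulla (1.27, adjusted p = 0.058) were not called. The rise was smaller than in the cortex by 1.27 ± 0.143 in the inner stripe (adjusted p = 1.9e-06) and by 1.18 ± 0.146 in the inner medulla (adjusted p = 1.63e-05). Anxa2 itself went from 42.5 and 69.7 CPM to 495 and 543 CPM, by 2.97 on the log2 scale, with its largest change in the outer stripe (4.18) and not in the cortex (2.71).

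The annexins and structural partners of S100 proteins mostly rose. Of 9 such genes, Anxa2 among them, 7 rose in whole sections (beside 31.0% of all genes) and 9 in the outer stripe (beside 34.5%). Their median log2 changes were 1.34 and 1.96, against 0.04 and 0.05 over all genes. This list was also chosen with earlier results of these data known, so its counts and medians are descriptions only. Myh9, a non-muscle myosin bound by S100a4, rose by 2.19 and Anxa1 by 1.36. Anxa11 (0.13) and Capn1 (0.26) did not pass the test in whole sections. At spot level, S100a10 and Anxa2 were only weakly related, with r between -0.01 and 0.28 in the 4 sections, and S100a10 correlated with Havcr1 at r = 0.787 and 0.613 in ischemic sections.

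S100a11 rose in whole sections and in each of the 4 tested zones. It stood at 155 and 222 CPM in normal against 1072 and 1102 CPM in ischemic sections, a log2 change of 2.27 ± 0.155 (adjusted p = 3.21e-06). By zone the rise was 2.70 (cortex), 2.37 (outer stripe), 2.17 (inner stripe) and 1.59 (inner medulla). Its normal order of zones, from the pelvis (591 and 977 CPM) down through the inner medulla, inner stripe and outer stripe to the cortex (80.5 and 95.3 CPM), was the same in ischemic sections, with a span of 8.92 times in normal and 2.49 times in ischemic kidney. In normal kidney no 2 neighbours in that order overlapped between sections, while in ischemic kidney the pelvis overlapped the inner medulla and the inner medulla the inner stripe. Over spots S100a6 and S100a11 correlated at r = 0.519 to 0.810 in the 4 sections.

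S100a13 changed the least of the broadly expressed members. It stood at 79.3 and 95.8 CPM in normal against 129 and 131 CPM in ischemic sections, a log2 change of 0.30 ± 0.103 (adjusted p = 0.0314). Without ischemic replicate 1 (0.32, adjusted p = 0.26) or 2 (0.31, adjusted p = 0.28) this was not called, nor with DESeq2 (0.26, adjusted p = 0.09). The outer stripe, at 61.7 and 71.4 against 116 and 117 CPM, rose by 0.44 ± 0.0934 (adjusted p = 0.000232) and was called in all 17 alternatives. The cortex rose by 0.33, which was not called without ischemic replicate 1 or 2 (0.34 and 0.34, adjusted p = 0.13 and 0.12). The inner stripe and inner medulla did not pass the test, at -0.04 and -0.17.

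**Figure D5:**
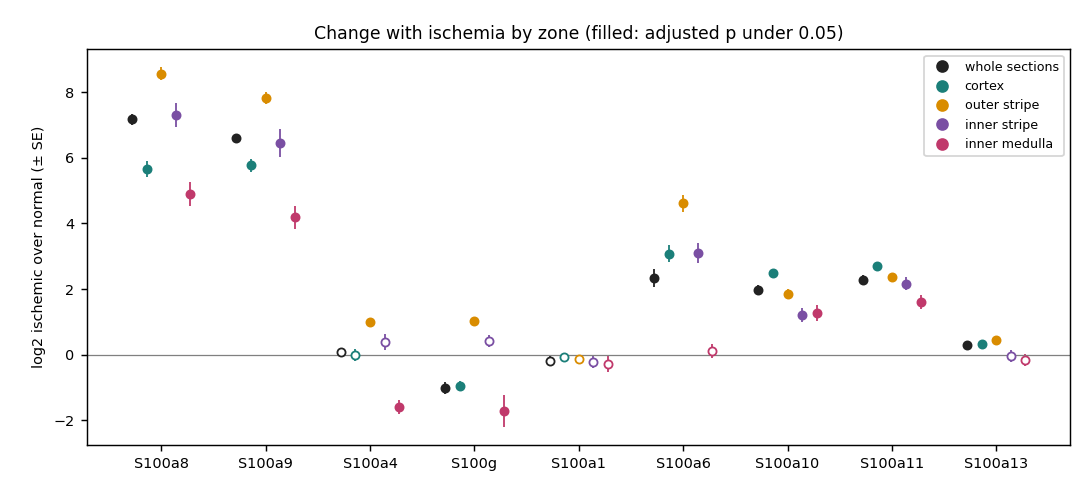
Log2 change with ischemia (points, with standard error bars) of the 9 members in whole sections and 4 zones, filled where the adjusted p was under 0.05. S100a8, S100a9 and S100a6 have their largest values in the outer stripe, and S100a4 and S100g take values on both sides of 0.

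Normal kidney already held zonal differences for most members. Against the normal cortex, the outer stripe had 4 members higher and 2 lower, beside 12.5% and 10.3% of genes (22.8% called). The inner stripe had 4 higher and 2 lower, beside 14.2% and 15.0% (29.2% called), and the inner medulla 5 higher and 2 lower, beside 19.6% and 20.6% (40.2% called). The largest were S100g, at -4.18, -5.37 and -3.45, and S100a6, at 4.36 ± 0.255 in the inner medulla. For the inner medulla, S100g was -4.53 without normal replicate 1 and -2.60 without normal replicate 2, and S100a6 was 3.71 and 4.97. The small outer stripe differences of S100a4 (0.45, adjusted p = 0.0495) and S100a6 (0.65, adjusted p = 0.0425) were lost without ischemic replicate 1 (0.45 and 0.66, adjusted p = 0.12 and 0.15) and without ischemic replicate 2 (adjusted p = 0.12 and 0.15). Against the ischemic cortex, the outer stripe had 5 members higher and 2 lower, beside 16.9% and 19.3% of genes (36.2% called). The inner stripe had 4 higher and 3 lower, beside 23.0% and 26.4% (49.5% called), and the inner medulla 5 higher and 3 lower, beside 20.6% and 24.9% (45.5% called). There S100a4 exceeded the cortex by 1.45 ± 0.153 and S100a6 by 2.18 ± 0.228 in the outer stripe. The inner stripe difference of S100a8 (0.55) was 0.36 with an adjusted p of 0.21 without ischemic replicate 1, and turned to -0.66 when only spots with no neighbour in another zone were used. The inner medulla differences of S100a8 (0.84) and S100a9 (0.81) turned to -0.82 and -0.79 in that setting, and were 0.07 and 0.18 with Cryab left out of the inner medulla list, neither called.

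Tests of whether the change with ischemia differed from that in the cortex called 4 members higher and 1 lower for the outer stripe, beside 8.06% and 13.5% of genes (21.5% called). For the inner stripe 1 was higher and 2 were lower, beside 5.16% and 13.9% (19.0% called), and for the inner medulla 0 were higher and 5 lower, beside 3.30% and 9.71% (13.0% called). In the outer stripe S100a8, S100g, S100a6 (1.52 ± 0.316) and S100a4 changed more upward than in the cortex and S100a10 less (-0.63 ± 0.141). Without ischemic replicate 1 or 2, S100a6 (1.51 and 1.54) and S100a10 (-0.61 and -0.66) were not called (adjusted p = 0.09 and 0.078 for S100a6, 0.15 and 0.11 for S100a10). In the inner medulla S100a6 changed less than in the cortex by -3.07 ± 0.321 (adjusted p = 2.75e-06), the largest difference among the 9 members (-2.38 without normal replicate 1 and -3.68 without normal replicate 2), and S100a11 by -1.09 ± 0.19 (adjusted p = 0.000542), the latter at -0.96 (adjusted p = 0.087) without ischemic replicate 1. These comparisons share the cortex samples.

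For each member the 3 genes most like it were taken by Pearson's r of log2(CPM + 1) over 20 section-by-zone sums, which share libraries and the difference between conditions, among 8962 others with a mean of at least 10 CPM. S100a8 was most like S100a9 (r = 0.984), Fosl1 (0.984), a subunit of the AP-1 factor, and Chil3 (0.981). S100a9 was most like Usp14 (0.986), a deubiquitinase of the proteasome, ahead of S100a8 (0.984) and Ran (0.980). S100a10 was most like Havcr1 (0.981). S100a6 was most like Pdlim1 (0.979) and had Krt18 (0.973), a keratin of simple epithelia, among the 3. S100g was most like Lipa (0.946), a lysosomal lipase, Slc6a19 (0.931), an amino acid transporter of the proximal tubule, and Alpl (0.928), the alkaline phosphatase. S100a11 was most like Hnrnpa1 (0.983), S100a4 like Rgs10 (0.943), S100a13 like Slc45a3 (0.946) and S100a1 like Acaa2 (0.819), an enzyme of mitochondrial fatty acid oxidation.

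Of the other S100 genes on the fixed list, S100a16 had the highest level. Of 9 names 8 were listed in the files, and 6 were tested in whole sections, where 2 rose and 1 fell, beside 31.0% and 29.7% of all genes. S100a3 rose from 11 and 5 UMIs to 191 and 149 UMIs, by 4.43 on the log2 scale. S100a16 rose from 78.7 and 95.5 CPM to 182 and 190.4 CPM, by 0.83. S100b, a glial and Schwann cell gene, fell from 21 and 11 UMIs to 3 and 2 UMIs. S100a14, an epithelial gene, did not pass the test in whole sections (0.67) but rose in the cortex (1.32), the outer stripe (1.65) and the inner stripe (2.02).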

How the data were processed

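The authors sequenced Visium libraries, ran Space Ranger 1.3.0 (per the file headers) on build mm10 (per the submitters' processing notes) and deposited the UMI counts of each spot and gene without normalization. Spots under tissue were kept, 10312 in all. Sections share 1833 to 2137 spot barcodes, which mark array positions. Counts were summed per section and zone. Zones came from fixed marker lists in a spot and its up to 6 neighbours, standardised within a section, and pelvis was the top 5% of spots with at least 10 counts. Zone markers themselves changed with ischemia in whole sections (log2, Slc34a1 -3.62, Slc7a13 -5.32, Slc12a1 -3.23, Slc14a2 2.73), while Aqp2 and Fxyd4 did not pass the test. The inner medulla held 5.12% and 8.35% of spots in normal and 12.2% and 11.5% in ischemic sections. A zone may therefore not hold the same tissue in both conditions. Conditions were compared with the quasi-likelihood test of edgeR 4.0.16 in R 4.3.3 after TMM scaling and filterByExpr, with Benjamini-Hochberg adjustment over every gene tested and a threshold of 0.05, each zone alone, and zones with 1 model with a section block. CPM is UMIs scaled to 1e6. DESeq2 1.42.0, other scalings, filters, zones and left-out sections were alternatives. Scripts were tested on simulated data. Intervals (95%) cover counting error only. Symbols of the listed 9 members, fixed lists and the 3 most alike genes are named. Members and lists were chosen with earlier results of these data known. S100a10 had no entry among the promoters used. The study's other sections and its single-cell data were not analysed here.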

Additional observations from a re-analysis of the deposited data

Results flagged for a closer look

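In 13 results the change with ischemia in a deeper zone differed from that in the cortex, by the test of the difference itself (edgeR, log2 difference ± SE, adjusted p over all genes tested). For the outer stripe these were S100a8 (2.89 ± 0.949, adjusted p = 0.0346), S100g (1.96 ± 0.367, adjusted p = 0.00064), S100a6 (1.52 ± 0.316, adjusted p = 0.00151), S100a4 (1.00 ± 0.223, adjusted p = 0.00285) and S100a10 (-0.63 ± 0.141, adjusted p = 0.00282). For the inner stripe they were S100g (1.39 ± 0.377, adjusted p = 0.0125), S100a11 (-0.55 ± 0.187, adjusted p = 0.0449) and S100a10 (-1.27 ± 0.143, adjusted p = 1.9e-06). For the inner medulla they were S100a6 (-3.07 ± 0.321, adjusted p = 2.75e-06), S100a4 (-1.54 ± 0.257, adjusted p = 0.000357), S100a10 (-1.18 ± 0.146, adjusted p = 1.63e-05), S100a11 (-1.09 ± 0.19, adjusted p = 0.000542) and S100a13 (-0.48 ± 0.146, adjusted p = 0.0343). The inner stripe difference of S100g was 1.49 (adjusted p = 0.16) without ischemic replicate 1 and 1.28 (adjusted p = 0.23) without ischemic replicate 2. That of S100a11 was called in 4 of 16 alternatives, and the inner medulla difference of S100a13 in 7 of 16. The inner stripe and inner medulla differences of S100a10 and the inner medulla difference of S100a6 were called in 16 of 16.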

How the results depend on the processing

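With 2 sections a group, 1 slide and no label for the mouse, it is not known whether the spread between animals was measured. The paper describes 2 mice per condition with 2 technical replicates of each. Normal levels of S100a8 and S100a9 rest on few UMIs. Among the members' log2 values, 1859 alternatives kept direction and call, 98 lost the call, 43 gained it and 6 reversed. With total counts in place of TMM, S100a1 in the outer stripe reversed to 0.24 and S100a13 in the inner medulla against the cortex (ischemic sections) to 0.37. With only spots that had no neighbour in another zone, a setting chosen after seeing the data, S100a8 and S100a9 in ischemic sections reversed to -0.66 and -0.86 (inner stripe against cortex) and to -0.82 and -0.79 (inner medulla against cortex). In that setting 2 members were called in the inner medulla between conditions and 5 in the ischemic inner medulla against the cortex. For the change in the inner stripe against the cortex, 1 member was called with the cortex list without Slc12a3 and 1 with no section block. Leaving out 1 section, members called ranged from 2 to 5 (outer stripe against cortex, change), 4 to 8 (inner stripe against cortex, ischemic sections), 1 to 3 (inner stripe, change) and 2 to 7 (inner medulla, change). The cause was not tested. Genes called in the inner medulla between conditions numbered 3080, and 1946 with DESeq2, 909 in interior spots and 4981 with 1 model over all zones. For the inner stripe between conditions they numbered 5417, and 3418 in interior spots. Against the cortex, no section block gave 2135 in place of 3237 (outer stripe, normal sections), 1665 in place of 3049 (outer stripe, change), 1576 in place of 2698 (inner stripe, change) and 1031 in place of 1844 (inner medulla, change). Interior spots gave 984 (inner stripe, change), 3587 in place of 6455 (inner medulla, ischemic sections) and 707 (inner medulla, change). Leaving out 1 section, genes called for the change against the cortex ran from 740 to 3849 (outer stripe), 903 to 3628 (inner stripe) and 514 to 2342 (inner medulla), those against the ischemic cortex from 1630 to 6821 (outer stripe, 5131 with all sections), 3783 to 8096 (inner stripe, 7013) and 3430 to 7261 (inner medulla), those for the outer stripe against the normal cortex from 2150 to 3574, and those between conditions from 3138 to 7545 (inner stripe) and 1561 to 4045 (inner medulla), so the background shares move as well. Over 15305 genes, the difference between normal sections 1 and 2 correlated with that between ischemic sections 1 and 2 at r = 0.162. With only 2 possible pairs this value cannot decide whether the numbers pair the sections. The replicate block changed the call of none of 45 member values.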
